A study of Rattus norvegicus with 20 samples.

Results

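The antioxidant enzyme genes followed here across rat lung RNA-seq libraries were the superoxide dismutases Sod1, Sod2 and Sod3, catalase (Cat), the glutathione peroxidases Gpx1, Gpx3 and Gpx4, haem oxygenase Hmox1, the quinone reductase Nqo1 and the glutamate-cysteine ligase subunit Gclm. They were picked by gene symbol, and all 10 were present among the 19060 genes of the table. The libraries came from lungs of 20 rats in 4 groups of 5. The Sham group had the abdomen opened and the caecum handled only, and the CLP group had caecal ligation and puncture, which lets gut bacteria into the abdomen and was used here to model acute respiratory distress syndrome. The Sham+VNS and CLP+VNS groups had the same operations with stimulation of the right cervical vagus nerve. The labels used here state no strain, sex, age, time from surgery to sampling or stimulation settings. Each library is whole lung, so fewer cells of a type and less RNA per cell cannot be told apart.

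Superoxide is formed by respiring mitochondria and by the oxidase of activated phagocytes. SOD enzymes turn it into hydrogen peroxide, with Sod1 (copper and zinc) in the cytosol, Sod2 (manganese) in mitochondria and Sod3 (copper and zinc) outside cells, bound to the matrix. Catalase in peroxisomes and the selenium-dependent glutathione peroxidases remove the peroxide: Gpx1 in the cytosol, Gpx3 as a secreted enzyme and Gpx4 on lipid hydroperoxides in membranes. Hmox1, Nqo1 and Gclm are textbook targets of the transcription factor NRF2. Hmox1 breaks down haem, Nqo1 reduces quinones, and Gclm is the modifier subunit of the enzyme that makes the first intermediate of glutathione. Sod2 is also a well-known target of NF-kappaB, the transcription factor of inflammatory signalling.

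The promoter sequences of Sod2 and Sod1 are shown because the first had the largest change after CLP and the second did not pass the test, and that of Gclm because it holds the letters of the NRF2 binding core. They are from RefSeq on GRCr8, 5′ to 3′ on the gene's own strand. Capitals mark the GC box (GGGCGG) and the antioxidant response element core (TGACNNNGC) in Sod2, the same core in Gclm, and the GC box and the TATA box (TATAAA) in Sod1, each on either strand.
Sod2, chr1:50050169-50050418, minus strand, 250 to 1 bases before the start: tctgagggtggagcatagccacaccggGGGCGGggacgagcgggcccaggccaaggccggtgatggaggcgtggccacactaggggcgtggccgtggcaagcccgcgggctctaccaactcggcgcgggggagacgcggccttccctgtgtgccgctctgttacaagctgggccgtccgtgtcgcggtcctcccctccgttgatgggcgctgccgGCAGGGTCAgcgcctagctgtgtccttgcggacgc
Gclm, chr2:213031925-213032044, plus strand, 210 to 91 bases before the start: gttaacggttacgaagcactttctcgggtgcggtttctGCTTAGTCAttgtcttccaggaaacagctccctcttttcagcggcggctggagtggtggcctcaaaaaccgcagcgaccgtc
Sod1, chr11:42942663-42942822, plus strand, 160 to 1 bases before the start: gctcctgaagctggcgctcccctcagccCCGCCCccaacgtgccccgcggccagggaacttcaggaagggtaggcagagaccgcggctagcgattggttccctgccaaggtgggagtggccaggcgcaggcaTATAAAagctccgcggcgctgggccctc
Promoters were matched for 8 of the 10 genes, the others being Sod3 and Hmox1. In the 250 bases before the start, searched on both strands, the antioxidant response element core was found in 2 of the 8 (Sod2 and Gclm), against 10.1% of 33469 promoters. A GC box was found in 7 of 8 (all but Cat), against 30.5%, and a TATA box in 2 of 8 (Sod1 and Nqo1), against 12.9%. An NF-kappaB consensus was found in 2 of 8 (Gpx1 and Gpx4), against 6.33%. The counts are of genes with a match in any promoter, of which Gpx4 had 3, while the percentages are of single promoters. A match only says that the letters are there.

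Library totals were 13729654 to 14453188 estimated counts, and libraries of a group correlated at Spearman 0.974 to 0.993. Markers of lung were high in every library, among them the surfactant gene Sftpc and the alveolar type 1 gene Ager. Sham replicate 1 stood apart in adipocyte markers, with a summed level, in counts-per-million (CPM), of 1105 against 101 to 133 in the other Sham libraries. It also held 5723 CPM of fibroblast markers, the highest of all libraries. Nothing in the labels gives a batch.

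Per transcript length, the genes spanned a wide range of levels. In Sham lungs the highest was Gpx3 at 1215 ± 115 TPM (transcripts-per-million, mean ± SD, n = 5), followed by Gpx1 at 619 ± 34.0 TPM and Sod1 at 590 ± 70.5 TPM, whose ranges overlapped. Gpx4 (347 ± 24.9 TPM) and Cat (174 ± 21.5 TPM) came next, each apart from its neighbours. Sod2 followed at 96.9 ± 6.08 TPM, then Sod3 at 77.5 ± 19.4 TPM, Nqo1 at 62.7 ± 10.7 TPM, Hmox1 at 40.8 ± 14.6 TPM and Gclm at 29.5 ± 2.70 TPM, with each range overlapping the next. In CLP lungs Sod2 had moved above Cat and Gpx4, at 493 ± 47.0 TPM, and overlapped Sod1. Hmox1, at 57.0 ± 14.3 TPM, overlapped Nqo1, and Sod3, at 33.6 ± 1.51 TPM, lay below both and above Gclm.

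**Figure D1:**
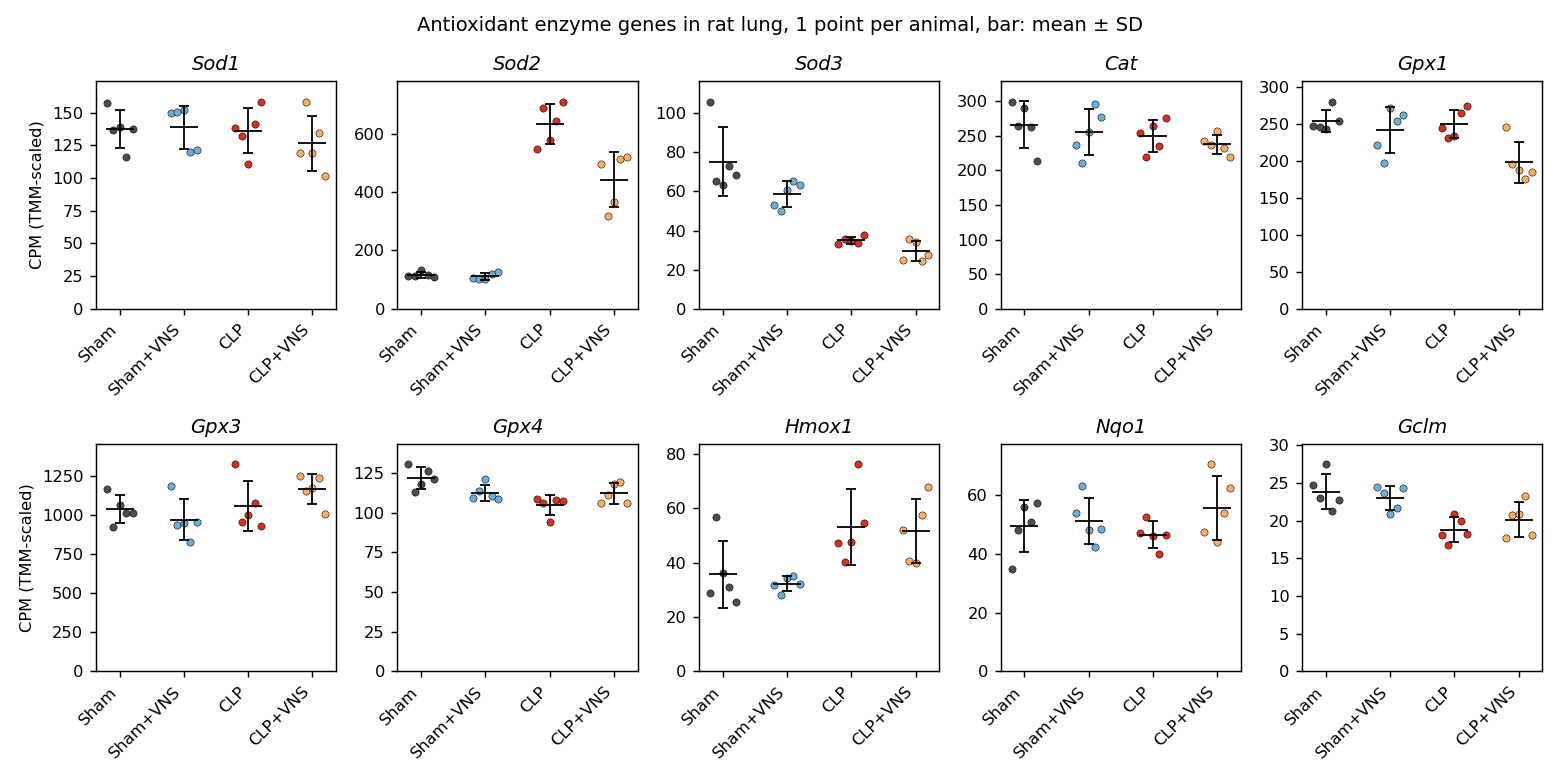
TMM-scaled CPM (vertical axes from 0) of the 10 genes in each of 20 libraries, by group; points are animals and bars are mean ± SD, n = 5. Sod2 lies between 548 and 709 CPM after CLP and between 110 and 134 CPM in Sham, while the Sod1 points of the 4 groups overlap.

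Which antioxidant enzyme genes differ between septic and sham lungs was asked first, by comparing CLP with Sham. Of the 10 genes 5 passed the test, 2 higher (Sod2, Hmox1) and 3 lower (Sod3, Gpx4, Gclm). Over all 14794 genes tested 40.3% passed, 19.8% higher and 20.5% lower, so a share of this size is near the background. The median log2 fold change of the 10 was -0.06, and that of all genes tested was -0.01. In 4 of the 10 the libraries of the groups did not overlap, and this held for 26.1% of all genes. All genes called were 2926 higher and 3029 lower, and with library totals in place of TMM scaling 2347 higher and 3756 lower. The test was edgeR's quasi-likelihood test on the estimated counts, called at a Benjamini-Hochberg adjusted p below 0.05, with ± giving the SE of a log2 fold change.

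Sod2 showed the largest response of the 10. Its level was 113, 111, 134, 115 and 110 CPM in the Sham libraries and 548, 688, 577, 643 and 709 CPM in the CLP libraries. Every CLP library was above every Sham library, by a wide gap. Sod2 thus had a log2 fold change of 2.44 ± 0.13 (5.42-fold, adjusted p = 8.56e-10), and 99.0% of all genes tested changed by less.

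Sod3, the extracellular enzyme, went the other way. It had 106, 65.6, 63.4, 72.9 and 68.6 CPM in Sham and 33.4, 35.4, 34.7, 33.4 and 37.7 CPM in CLP. The CLP libraries were close together and all below the lowest Sham library, and Sham replicate 1 was far above the rest of its group. The change on the log2 scale was -1.11 ± 0.13 (2.16-fold lower, adjusted p = 3.15e-06), and it was -0.96 without that library.

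Sod1, the cytosolic enzyme, had 116 to 157 CPM in Sham and 111 to 158 CPM in CLP, ranges that lay over each other. Its log2 fold change was -0.01 ± 0.11 (adjusted p = 0.940), with a 95% confidence interval of -0.25 to 0.22.

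The SOD transcripts thus had a different make-up after CLP. By TPM, Sod1 made up 77.1 ± 1.63% of the SOD sum in Sham, Sod2 12.8 ± 1.49% and Sod3 10.1 ± 1.69%. After CLP the shares were 50.8 ± 2.87%, 46.0 ± 2.75% and 3.15 ± 0.274%. The SOD sum itself was 764 ± 85.4 TPM in Sham and 1073 ± 95.1 TPM in CLP, and its ranges did not overlap (658 to 897 and 943 to 1203 TPM).

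**Figure D2:**
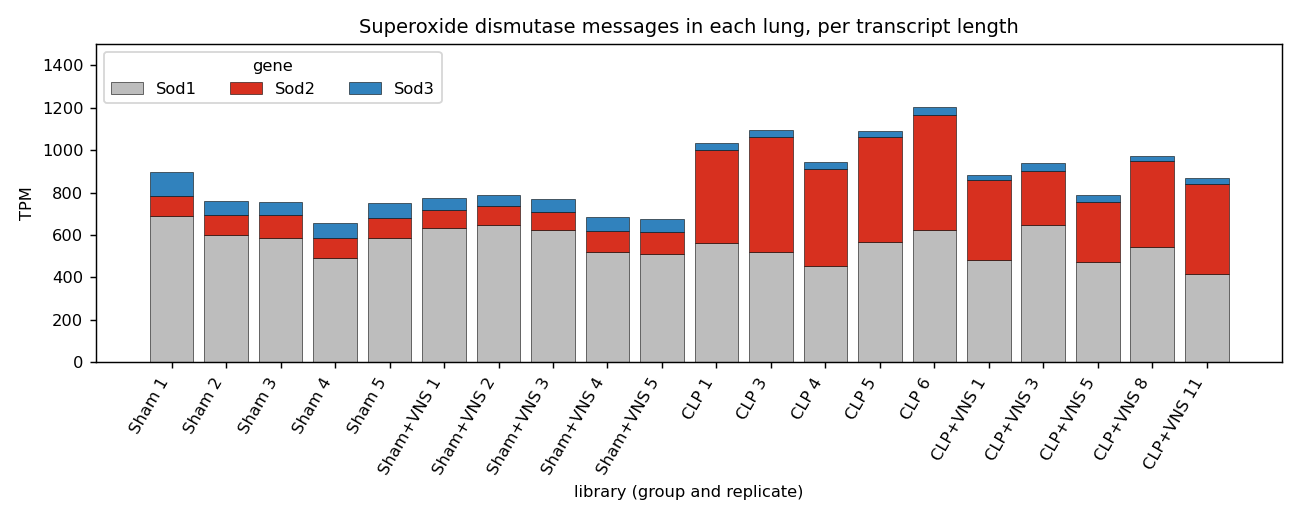
Stacked TPM (vertical axis from 0) of Sod1, Sod2 and Sod3 in each of the 20 libraries, ordered by group. The Sod2 segment makes up 10.8% to 14.3% of the bar in Sham and 42.4% to 49.2% in CLP. The Sod3 segment makes up 8.34% to 12.4% in Sham and 2.89% to 3.59% in CLP.

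Among the peroxide-removing enzymes, Gpx4 was the one that passed the test. Its level was 130, 113, 118, 126 and 121 CPM in Sham and 109, 106, 93.9, 108 and 108 CPM in CLP. The groups did not overlap, and CLP replicate 4 was the lowest of all. The log2 fold change was -0.22 ± 0.05 (adjusted p = 0.0025), and 50.9% of all genes tested changed by less. Gpx1 (-0.03 ± 0.09), Gpx3 (0.03 ± 0.10) and Cat (-0.09 ± 0.09) did not pass, at adjusted p = 0.852, 0.861 and 0.465, and their intervals reached no further than -0.29 or 0.24. The sign of Gpx3 flipped with library totals in place of TMM (-0.02).

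The NRF2 target genes did not move together. Gclm had 24.7, 22.9, 27.4, 21.3 and 22.7 CPM in Sham and 18.1, 16.7, 20.8, 20.0 and 18.1 CPM in CLP. All CLP libraries were below the lowest Sham library, by a narrow gap. Gclm had a log2 fold change of -0.34 ± 0.09 (adjusted p = 0.00347).

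Hmox1 had 28.7, 56.7, 36.2, 31.2 and 25.4 CPM in Sham and 47.1, 40.0, 47.7, 76.0 and 54.4 CPM in CLP. The groups overlapped because Sham replicate 2 was high, and CLP replicate 5 was the highest. The log2 fold change was 0.57 ± 0.20 (adjusted p = 0.0303). The call was lost without Sham replicate 1, 4 or 5 (adjusted p = 0.0781, 0.0680 and 0.0858) or CLP replicate 5 or 6 (adjusted p = 0.118 and 0.0558), and in a fit of the compared groups alone (adjusted p = 0.0779).

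Nqo1 had 34.9 to 57.2 CPM in Sham and 40.1 to 52.7 CPM in CLP, so all CLP libraries lay within the Sham range. Its log2 fold change was -0.09 ± 0.14 (adjusted p = 0.662).

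**Figure D3:**
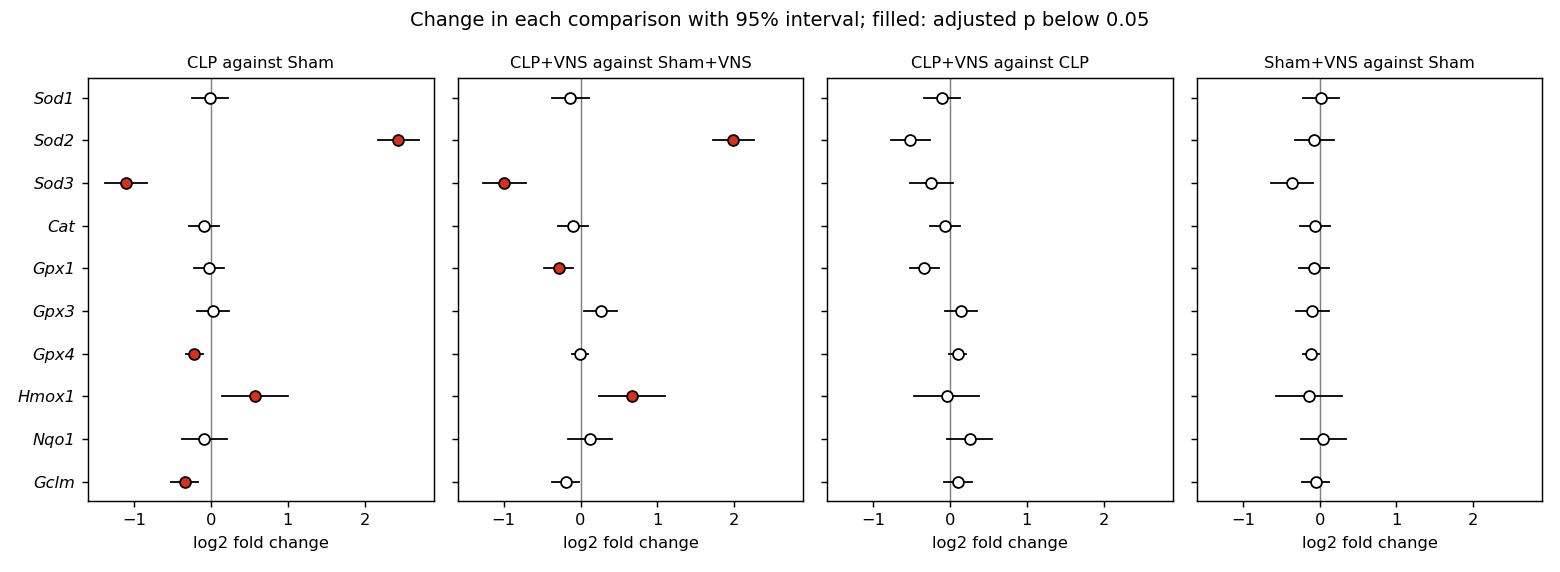
Log2 fold change (horizontal axis) of each of the 10 genes in the CLP and VNS comparisons, with bars for the 95% confidence interval and filled points for an adjusted p below 0.05. Sod2 lies at 2.44 and 1.99 and Sod3 at -1.11 and -0.99 for CLP without and with VNS, and no point for VNS itself is filled.

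The effect of CLP in stimulated animals was then taken from CLP+VNS against Sham+VNS. The groups compared share no library with the first comparison, but both tests came from the same fit to all 4 groups. Here 4 of the 10 genes passed, Sod2 and Hmox1 higher and Sod3 and Gpx1 lower, against 27.3% of all genes tested (13.9% higher, 13.4% lower). The median log2 fold change was -0.05, with -0.01 over all genes. Groups were apart at 3 of the 10, against 18.9% of all genes.

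Sod2 had 106, 102, 102, 119 and 128 CPM in Sham+VNS and 494, 317, 367, 514 and 520 CPM in CLP+VNS. All CLP+VNS libraries were far above Sham+VNS, but replicates 3 and 5 were well below the other three. The log2 fold change was 1.99 ± 0.12 (3.98-fold, adjusted p = 1.27e-08).

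Sod3 had 53.3, 49.9, 61.0, 65.5 and 63.3 CPM in Sham+VNS and 25.1, 35.7, 34.1, 24.7 and 27.6 CPM in CLP+VNS. The groups were apart, with a log2 fold change of -0.99 ± 0.13 (adjusted p = 1.99e-05). Sod2 made up 12.5 ± 2.13% of the SOD sum in Sham+VNS and 39.2 ± 8.03% in CLP+VNS, where single libraries ranged from 27.3% to 48.7%.

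Hmox1 had 31.8, 28.0, 34.5, 35.2 and 31.9 CPM in Sham+VNS, a tight group, and 52.0, 40.4, 39.8, 57.6 and 67.7 CPM in CLP+VNS. The groups did not overlap, at a log2 fold change of 0.67 ± 0.20 (adjusted p = 0.0185). Without CLP+VNS replicate 11, the highest library, the adjusted p was 0.0628.

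Gpx1 had 222, 198, 272, 254 and 262 CPM in Sham+VNS and 247, 196, 189, 175 and 185 CPM in CLP+VNS. The groups overlapped at CLP+VNS replicate 1, which was far above its group, and at Sham+VNS replicate 2, which was the lowest of its own. The log2 fold change was -0.29 ± 0.09 (adjusted p = 0.0253). The call was lost without Sham+VNS replicate 3, 4 or 5 or CLP+VNS replicate 5, 8 or 11 (adjusted p = 0.0592 to 0.0792), and in a fit of the compared groups alone (adjusted p = 0.0791).

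Gpx4, lower after CLP alone, had 109 to 121 CPM in Sham+VNS and 106 to 120 CPM in CLP+VNS, so the groups lay over each other (-0.01 ± 0.05, adjusted p = 0.944). Gclm (-0.19 ± 0.09, adjusted p = 0.104) and Gpx3 (0.26 ± 0.10, adjusted p = 0.0618) did not pass. Gclm passed with library totals (adjusted p = 0.0490), with limma on TPM (adjusted p = 0.0260) and without CLP+VNS replicate 8 (adjusted p = 0.0392). Gpx3 passed with DESeq2 (adjusted p = 0.0366) and without Sham+VNS replicate 1 (adjusted p = 0.0140) or CLP+VNS replicate 11 (adjusted p = 0.0371). Sod1, Cat and Nqo1 stayed at log2 fold changes between -0.13 and 0.12, with adjusted p = 0.428 or more.

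Whether stimulation altered these genes in septic lungs was read from CLP+VNS against CLP. None of the 10 passed edgeR's test, against 0.0270% of all genes (4 genes, all lower), and 2 of the 10 had an unadjusted p below 0.05 (Sod2, Gpx1), against 13.0% of all genes. DESeq2 called those 2, out of 144 genes in all. Sod2 was lower in every CLP+VNS library (317 to 520 CPM) than in any CLP library (548 to 709 CPM). Groups were apart, in either direction, at 2.26% of all genes. The log2 fold change of Sod2 was -0.52 ± 0.12, with a 95% confidence interval of -0.77 to -0.27. It did not pass (adjusted p = 0.127, and 0.0109 with DESeq2). Gpx1 had 231 to 274 CPM in CLP and 175 to 196 CPM in 4 CLP+VNS libraries, with CLP+VNS replicate 1 at 247 CPM. Its log2 fold change was -0.34 ± 0.09 (adjusted p = 0.178, and 0.0438 with DESeq2).

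These calls differed with the test and with the libraries used. Without CLP+VNS replicate 1, edgeR called 277 genes in place of 4, Sod2 (-0.56, adjusted p = 0.0346) and Gpx1 (-0.43, adjusted p = 0.0149) among them. The other 8 genes had log2 fold changes between -0.25 (Sod3) and 0.26 (Nqo1), with adjusted p = 0.438 or more. The median of the 10 was -0.06, and that of all genes was 0.00.

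In sham lungs, none of the 10 genes and none of all genes tested (0%) passed between Sham+VNS and Sham with edgeR, whereas DESeq2 called 6 genes. An unadjusted p below 0.05 was seen at 2 of the 10 (Sod3, Gpx4), against 8.01% of all genes, and the groups overlapped at all 10, whereas they were apart at 0.798% of all genes. Sod3 had a log2 fold change of -0.36 ± 0.13 (adjusted p = 0.575), which was -0.21 without Sham replicate 1, and Gpx4 had -0.11 ± 0.05 (adjusted p = 0.623). The difference between the VNS effects in septic and sham lungs, tested as an interaction, passed at none of the 10 and at 0% of all genes with edgeR (6 genes with DESeq2). It had an unadjusted p below 0.05 at 2 of the 10, against 8.23% of all genes: Gpx4 (0.21 ± 0.07, adjusted p = 0.512) and Sod2 (-0.45 ± 0.17, adjusted p = 0.538).

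Neutrophil markers rose with Sod2 between Sham and CLP. Of 13 neutrophil markers, such as S100a8, S100a9 and Mmp8, 12 were tested, and all 12 rose, against 19.8% of all genes. Their summed level was 380 to 1003 CPM in Sham, 311 to 768 CPM in Sham+VNS, 4331 to 6047 CPM in CLP and 2075 to 5679 CPM in CLP+VNS, with no marker at 0 in any group. The CLP+VNS libraries with the lowest Sod2, replicates 3 and 5, also had the lowest sums of that group, 2349 and 2075 CPM. Replicates 1 and 11 of that group had sums of 4382 and 5679 CPM, within the CLP range. Their Sod2, at 494 and 520 CPM, was below every CLP library (548 to 709 CPM). Within CLP the orders matched only in part. Replicate 1 was lowest in both, with a sum of 4331 CPM and 548 CPM of Sod2. Replicate 3 had the highest sum (6047 CPM) and 688 CPM of Sod2. Replicate 6, with the highest Sod2 (709 CPM), had a sum of 4387 CPM, and replicate 4, with 577 CPM of Sod2, had 4796 CPM. In Sham (replicate 3), Sham+VNS (replicate 5) and CLP+VNS (replicate 11), the library with the highest sum also had the highest Sod2. In CLP+VNS against CLP, none of the 12 passed and their median log2 fold change was -0.52. Their part in the Sod2 difference was not tested.

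Some structural cell markers fell with Sod3 between Sham and CLP, where 20.5% of all genes fell and 19.8% rose. T and B cell markers also fell, and alveolar type 2 markers rose at 3 of 8 and fell at none. Fibroblast markers fell at 5 and rose at 1 of 7 between Sham and CLP, with sums of 2098 to 5723 CPM and 1835 to 2262 CPM. Alveolar type 1 markers fell at 5 of 7, with sums of 7221 to 9918 CPM and 5020 to 7760 CPM, and smooth muscle and pericyte markers at 3 of 7, with 549.6 to 696 CPM and 373 to 622 CPM. In CLP+VNS against Sham+VNS, fibroblast markers fell at 3 and rose at 1 of 7. There, alveolar type 1 markers fell at 5 of 7, and smooth muscle and pericyte markers at 1 of 7. Over all genes 13.4% fell and 13.9% rose in that comparison, so 1 of 7 is near the background. The part of any cell type in the fall of Sod3 was not tested. Of the 7 adipocyte markers, 1 (Plin1) was at 0 in every CLP library. The sums were 101 to 1105 CPM in Sham, 114 to 383 CPM in Sham+VNS, 95.3 to 117 CPM in CLP and 118 to 149 CPM in CLP+VNS. Sod3 was highest in the Sham library with the highest adipocyte sum, and lowest of its group in the Sham+VNS library with the highest sum there (383 CPM). The fall of Sod3 after CLP was also called without that Sham library, as given above.

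Of the markers of other cells, T cell markers fell at 6 of 6 and B cell markers at 4 of 5 between Sham and CLP, with none higher. Over all genes 19.8% rose and 20.5% fell. Endothelial markers fell at 4 and rose at 1 of 8, monocyte and macrophage markers rose at 5 and fell at 1 of 11, and alveolar type 2 markers rose at 3 of 8. Alveolar macrophage markers rose at 1 and fell at 1 of 6, ciliated cell markers fell at 1 of 6, and none of 5 secretory cell markers passed. Adipocyte markers fell at 3 of 4 and cardiac muscle markers at 4 of 4, both of them summing highest in Sham replicate 1 (1105 and 179 CPM).

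**Figure D4:**
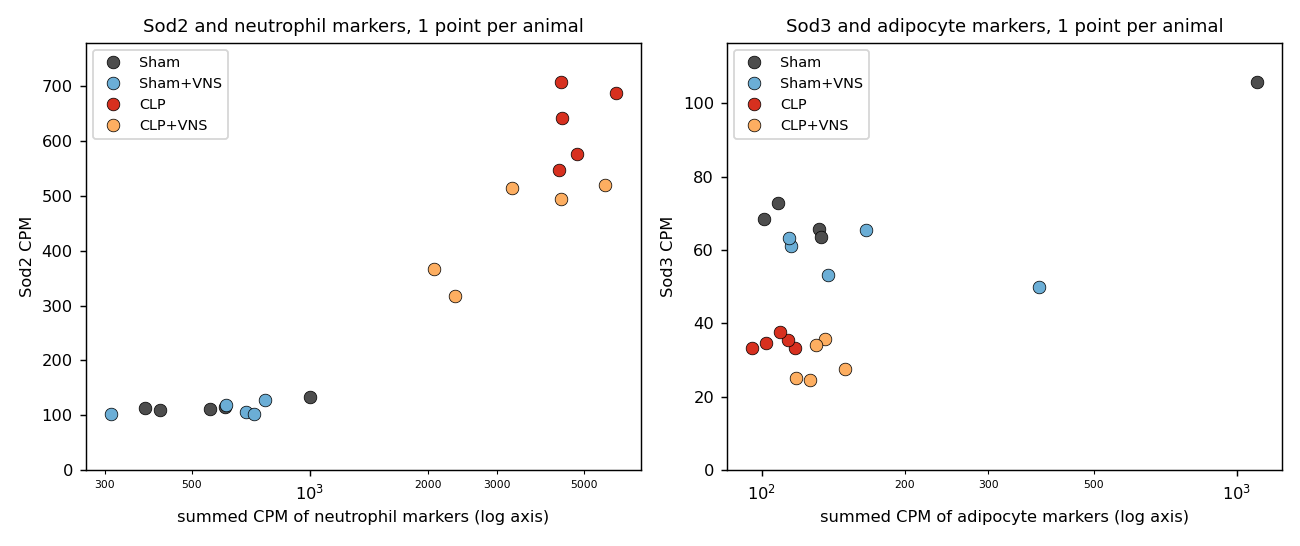
Left, CPM of Sod2 (vertical axis) against the summed CPM of 13 neutrophil markers (log axis); right, CPM of Sod3 against the summed CPM of 7 adipocyte markers (log axis), with 1 point per animal coloured by group. CLP+VNS replicates 3 and 5 are the points at 317 and 367 CPM of Sod2, and Sham replicate 1 is the point at 106 CPM of Sod3.

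Erythroid markers, which bear on haem and on the red cell content of the tissue, were at 2809 to 5383 CPM in Sham, 3444 to 6526 CPM in Sham+VNS, 2638 to 4999.5 CPM in CLP and 4454 to 9178 CPM in CLP+VNS. None of the 8 rose and 1 fell between Sham and CLP, where 19.8% of all genes rose and 20.5% fell. Their part in the Hmox1 difference was not tested.

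Gpx4 and Hmox1 were listed with 3 transcripts each, and the other genes with 1. For Gpx4, NM_001368043 made up 60.2 ± 4.97% of the gene's TPM in Sham and 62.7 ± 1.60% in CLP, and NM_017165 made up 39.2 ± 4.77% and 36.7 ± 1.47%. Exact two-sided permutation tests over 4 transcript shares of the 2 genes gave adjusted p = 0.651 to 0.675, where the smallest p possible was 0.00794. All of the listed transcripts of the 10 genes were tested with edgeR except XM_039097469 of Hmox1. Between CLP and Sham 4 of them passed, against 10.9% of all 38195 transcripts tested. They were those of Sod2, Sod3, Gclm and the NM_017165 form of Gpx4 (-0.30 ± 0.09, adjusted p = 0.0286). The main Hmox1 transcript, NM_012580, had 0.58 ± 0.22 (adjusted p = 0.109). In CLP+VNS against Sham+VNS 2 passed, against 6.70% of all, and in CLP+VNS against CLP none did, against 0.00262%.

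The wider redox system was read from 9 lists of 139 genes, 132 of which were tested. Between CLP and Sham 69 passed, 47 higher and 22 lower (52.3%, with 40.3% over all genes), and in CLP+VNS against Sham+VNS 52 passed, 41 higher and 11 lower (39.4%, with 27.3%). The median log2 fold change was 0.06 in both. The counts of each list below stand beside all genes, of which 19.8% rose and 20.5% fell between Sham and CLP. In CLP+VNS against Sham+VNS 13.9% of all genes rose and 13.4% fell. None passed in CLP+VNS against CLP or in Sham+VNS against Sham by edgeR's test. An unadjusted p below 0.05 was seen at 16 and 11 of the 132, near the 13.0% and 8.01% of all genes.

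Genes that supply the metal cofactors of the SODs changed in opposite ways. Of 7 tested, 4 rose and 2 fell after CLP, with a median of 0.29. The importers Slc39a8 (2.13 ± 0.28) and Slc39a14 (1.69 ± 0.22), which carry manganese and zinc, rose, from 109.8 to 482 CPM and from 12.5 to 40.5 CPM. The copper chaperone of Sod1, Ccs (-0.36 ± 0.07), and the copper chaperone Atox1 (-0.45 ± 0.12), which passes copper to the secretory pathway, fell. The copper genes did not all go 1 way: the copper importer Slc31a1 rose (0.29 ± 0.05), and Atp7a did not pass (0.09, adjusted p = 0.336). In CLP+VNS against Sham+VNS, the VNS arm, 4 rose and none fell, with Slc39a8 at 1.60 ± 0.27 and Slc39a14 at 1.51 ± 0.22.

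The other glutathione peroxidases all fell after CLP, 3 of 3 tested, with a median of -0.61. Gpx7 (-0.71 ± 0.11) and Gpx8 (-0.54 ± 0.14) are peroxidases of the endoplasmic reticulum, and Gpx2 (-0.61 ± 0.20, adjusted p = 0.0188) is the epithelial form. Gpx2 lost its call without Sham replicate 5 (-0.44, adjusted p = 0.0692). Between CLP+VNS and Sham+VNS 1 of the 3 passed, Gpx7 (-0.46 ± 0.11).

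Glutathione synthesis and recycling genes rose at 8 of 14 and fell at none (median 0.33). The gamma-glutamyl transferases Ggt1 (2.11 ± 0.26) and Ggt5 (1.14 ± 0.21), which cleave extracellular glutathione, and the glutaredoxin Glrx (1.10 ± 0.11) rose most. The cystine importer Slc7a11 rose too (1.02, adjusted p = 0.0247). The rises did not include the synthesis enzymes of the list. Gclc, the catalytic partner of Gclm, had a log2 fold change of -0.23 (adjusted p = 0.0947), and the synthetase Gss had -0.18 (adjusted p = 0.360). The reductase Gsr did not pass either (0.14, adjusted p = 0.0742). In the VNS arm 6 rose and 1 fell.

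Of 20 genes of the peroxiredoxin and thioredoxin system 7 rose and 4 fell (median 0.07). Prdx5, a peroxiredoxin of mitochondria and peroxisomes, rose most (1.33 ± 0.12, from 118 to 297 CPM), followed by sulfiredoxin Srxn1 (0.81 ± 0.14) and the thioredoxin inhibitor Txnip (0.56 ± 0.10). The methionine sulfoxide reductases Msrb2 (-0.59 ± 0.14) and Msrb3 (-0.34 ± 0.07) and the endoplasmic reticulum peroxiredoxin Prdx4 (-0.35 ± 0.08) fell. Thioredoxin reductase Txnrd1 rose (0.47), and Prdx1 (-0.05, adjusted p = 0.482) did not pass. With VNS, 5 rose and 3 fell, with Prdx5 at 1.05 ± 0.12.

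The genes of selenoprotein synthesis and transport rose at 3 and fell at 3 of 15 (median 0.00), near the share of all genes that passed (40.3%). Selenow (-0.82 ± 0.07), Selenom (-0.68 ± 0.12) and the selenocysteine tRNA kinase Pstk (-0.58 ± 0.16) fell. The selenoprotein P receptor Lrp8 (0.74 ± 0.15), the selenocysteine synthase Sepsecs (0.66 ± 0.11) and Selenos (0.31 ± 0.05) rose. In the VNS arm 3 rose and 2 fell, with Selenow at -0.67 ± 0.07.

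Beside Hmox1, haem breakdown genes rose at 4 and fell at 3 of 9 (median 0.24). The scavengers haptoglobin Hp (3.08 ± 0.29, from 21.3 to 180.3 CPM) and haemopexin Hpx (2.64 ± 0.50) rose most, and the electron donor of haem oxygenase, Por, rose by 0.97 ± 0.12. Biliverdin reductase Blvrb (-0.39 ± 0.07), the reductase Cyb5r3 (-0.53 ± 0.13) and the haem transporter Slc48a1 (-0.32 ± 0.05) fell. Among stimulated animals, 4 rose and 1 fell.

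NRF2 and its regulators rose at 9 of 15 and fell at none, with a median of 0.16, in both arms. The list holds activators and repressors alike. Nfe2l2, which encodes NRF2, rose by 0.39 (adjusted p = 0.00055), Bach1, a repressor of Hmox1, by 0.71 ± 0.07, and the small Maf partners Maff and Mafg by 1.39 ± 0.22 and 0.62 ± 0.06. Keap1, which holds NRF2 back, had -0.11 (adjusted p = 0.131). In the VNS arm Bach1 had 0.56 ± 0.07, Maff 1.12 ± 0.22 and Mafg 0.55 ± 0.06.

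The detoxification and NADPH genes linked to NRF2, the list closest to Nqo1, split in direction. Of 32, 8 rose and 6 fell (median -0.07), near the share of all genes that passed (40.3%). Ugdh, which makes UDP-glucuronate (1.15 ± 0.12), the exporter Abcc4 (0.73 ± 0.09) and the microsomal glutathione transferase Mgst2 (0.61 ± 0.08) rose. Mgst3 (-0.46 ± 0.08), Gsta4 (-0.39 ± 0.13, adjusted p = 0.0278) and Gstp1 (-0.38 ± 0.10), all glutathione transferases, fell. Leaving out replicate 4 or 5 of either group ended the call of Gsta4 (adjusted p = 0.0503 to 0.103). Between CLP+VNS and Sham+VNS 7 rose and 3 fell.

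Peroxisome genes, the compartment of catalase, had the smallest share of called genes among the 9 lists after CLP, with 4 higher and 1 lower of 17 (median -0.02). This was below the share over all genes (40.3%). Pex11a, which takes part in peroxisome division, rose by 1.15 ± 0.14. In the VNS arm 3 rose and none fell, with Pex11a at 0.82 ± 0.14.

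**Figure D5:**
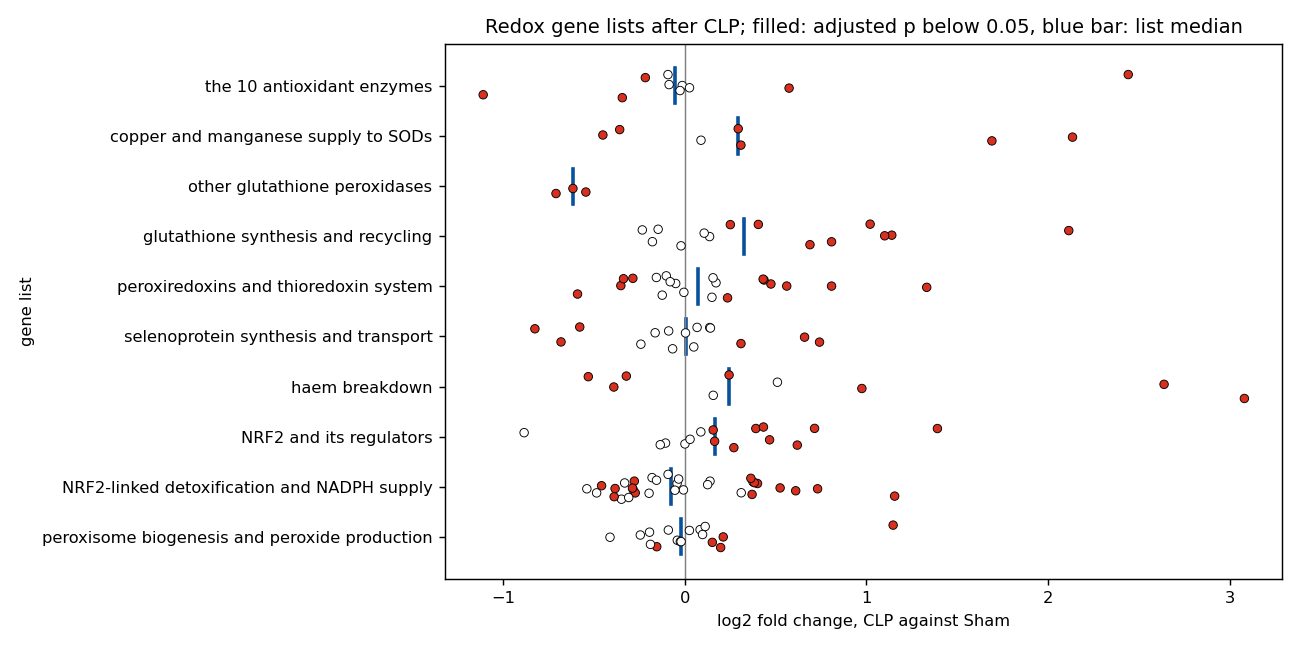
Log2 fold change between CLP and Sham (horizontal axis) of the 10 enzymes and of the tested genes of the 9 redox lists; each point is a gene, filled where the adjusted p is below 0.05, and the blue bar is the list's median. The medians run from -0.61 (other glutathione peroxidases) to 0.33 (glutathione synthesis and recycling), and NRF2 regulators have filled points on the right side only.

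The genes most like each member were ranked by Pearson's r of log2 CPM over the 20 libraries, among 14102 genes. These values are descriptions, since the libraries share groups. For Sod2 the nearest were the ribonuclease Zc3h12a (r = 0.98) and Cst7 (r = 0.98), for Sod3 LOC120094123 (r = 0.97) and the tetraspanin Cd81 (r = 0.95), and for Gpx1 the lysosomal amidase Naaa (r = 0.94). With group means taken out, Naaa still ranked first for Gpx1 (r = 0.89). The nearest to Cat were then Slc25a20, the mitochondrial carnitine carrier (r = 0.90), and Tmem135 (r = 0.86), and the nearest to Nqo1 were Akap14 (r = 0.90) and Stox1 (r = 0.89). Sod3 was nearest to Foxo1 (r = 0.88), while the nearest to Sod2, Nipa2, reached r = 0.76. Between members the values were lower, from -0.63 for Cat and Nqo1 to 0.50 for Sod3 and Cat and for Sod1 and Gpx4.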

How the data were processed

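Poly(A)-selected, strand-marked RNA-seq libraries of 20 rat lungs were used, 5 per group, grouped by the labels' treatment. The authors' gene and transcript tables hold estimated counts, FPKM and TPM per library, per the file headers, and deposited signal columns were not used. The genome build was mRatBN7.2, per the submitters' processing notes. Names of the aligner, counter and annotation were not given in the sources used here. Deposited estimated counts (91.5% whole for genes, 43.1% for transcripts) were rounded. Deposited FPKM values were not used. Deposited TPM served for levels between genes.

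Low genes were removed with edgeR's filterByExpr (minimum count 10), leaving 14794 genes, and counts were scaled by TMM (factors 0.977 to 1.04). A quasi-likelihood model over all 4 groups (16 residual df, common coefficient of variation 0.161) was fitted in edgeR 4.0.16 on R 4.3.3, with Benjamini-Hochberg adjustment over all genes tested. CPM are TMM-scaled. Totals of about the same size in all libraries give like counting precision. Libraries are separate animals as far as the labels say, and no pair of libraries was a duplicate. Alternatives were library totals alone, no filter, a replicate block, the compared groups only, DESeq2 1.42.0, limma 3.58.1 on log2(TPM + 1) and leaving out each library. The test was tried on simulated data first. The labels do not say that equal replicate numbers pair animals, so the numbers were not taken as pairs.

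Of each redox list, up to 3 called genes per direction with the largest change were named. Slc7a11, Gclc, Gss, Gsr, Slc31a1, Atp7a, Txnrd1, Prdx1, Nfe2l2 and Keap1 were named for their roles, after their values were seen. The members, lists and markers were chosen with earlier results of these data known. Some genes that the rules would name are not reported here.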

Additional observations from a re-analysis of the deposited data

Results flagged for a closer look

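In 40 groups of 5 libraries (10 genes in 4 groups) the gap of the highest or lowest library to its neighbour was set against the whole range of the group, and 4 exceeded Dixon's 95% limit of 0.71. Chance flags about 1 in 20 groups. Sod2 was at 134 CPM in Sham replicate 3, with 110 to 115 CPM in the other Sham libraries. Sod3 was at 106 CPM in Sham replicate 1, with 63.4 to 72.9 CPM in the others. Gpx1 was at 247 CPM in CLP+VNS replicate 1, with 175 to 196 CPM in the others. Gpx4 was at 93.9 CPM in CLP replicate 4, with 106 to 109 CPM in the others.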

How the results depend on the processing

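Over 16 alternatives for CLP against Sham, the calls of Sod2 (2.33 to 2.49), Sod3 (-1.19 to -0.96), Gpx4 (-0.30 to -0.18) and Gclm (-0.42 to -0.29) were kept. Of 890 log2 fold changes of the 10 genes recomputed, 826 kept direction and side of the threshold, 16 lost and 10 gained a call, and 38 changed sign, none of them called. Of 1280 of the named redox genes 72 lost a call. Depth was alike in all libraries. The cause of these changes was not tested.

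The replicate number as a block, in place of no pairing, gave 4732 called genes for CLP against Sham, 2110 for CLP+VNS against Sham+VNS (4044 without) and 0 for CLP+VNS against CLP. In the second comparison 2 of the 10 genes passed, not Hmox1 (adjusted p = 0.215) or Gpx1 (0.202), and in the first 2 transcripts in place of 4. Correlations of same-numbered libraries were -0.163 to 0.178, with 3 of 22 pairs over 0.1. Between CLP and CLP+VNS those of replicates 1, 3 and 5 were 0.026, 0.178 and 0.125, and different-numbered pairs ran from -0.210 to 0.162. The labels do not say whether equal numbers pair animals, and these values cannot settle it. The block also turned Cat in CLP+VNS against CLP (0.046) and Cat (0.11) and Hmox1 (-0.16) in the interaction.

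DESeq2 called 144 genes, 2 members and 1 member transcript for CLP+VNS against CLP, 4 member transcripts for CLP+VNS against Sham+VNS, and 6 genes each for Sham+VNS against Sham and the interaction. Genes called for CLP+VNS against CLP were 0 with library totals, 0 with the compared groups alone and 0 with limma. The compared groups alone gave 1 gene for Sham+VNS against Sham. Without single libraries, called genes ranged from 0 to 277 for CLP+VNS against CLP (members 0 to 2), 0 to 2 for Sham+VNS against Sham and 0 to 3 for the interaction. The 277, the 2 members and the 3 came without CLP+VNS replicate 1, and the 2 genes without Sham replicate 3.

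Signs changed for Gpx3 in CLP against Sham (-0.024 with library totals, -0.073 with limma), Sod1 in Sham+VNS against Sham (-0.0058 with limma) and Cat in the interaction (0.0059 with library totals, 0.024 with limma). Without single libraries, log2 fold changes that crossed 0 ranged as follows. In CLP against Sham, Sod1 ran from -0.073 to 0.054, Gpx1 from -0.061 to 0.015 and Gpx3 from -0.066 to 0.071, and Gpx4 in CLP+VNS against Sham+VNS from -0.032 to 0.020. In CLP+VNS against CLP, Hmox1 ran from -0.17 to 0.12. In Sham+VNS against Sham, Sod1 ran from -0.040 to 0.062, Hmox1 from -0.25 to 0.089, Nqo1 from -0.059 to 0.11 and Gclm from -0.087 to 0.0055. In the interaction, Sod3 ran from -0.039 to 0.17, Cat from -0.070 to 0.059 and Hmox1 from -0.13 to 0.27.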

Other observations

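The glutathione peroxidases kept a steadier make-up than the SODs. By TPM, Gpx3 made up 55.6 ± 2.15% of the sum of Gpx1, Gpx3 and Gpx4 in Sham, 55.4 ± 4.33% in Sham+VNS, 57.5 ± 3.82% in CLP and 62.9 ± 1.55% in CLP+VNS (mean ± SD, n = 5). Gpx1 made up 28.4 ± 2.00%, 28.8 ± 3.83%, 28.5 ± 2.95% and 22.2 ± 2.36%. Single CLP libraries had Gpx1 shares of 24.1% to 32.4%, which overlapped those of CLP+VNS, at 19.2% to 25.5%. The sum was 2181 ± 142 TPM in Sham, 2022 ± 122 TPM in Sham+VNS, 2014 ± 204 TPM in CLP and 2049 ± 110.4 TPM in CLP+VNS.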
